A study of Homo sapiens with 44 samples.

Results

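HL-60 is a promyelocytic leukaemia line, and its baseline expression was set here against that of 3 other acute myeloid leukaemia (AML) lines, THP-1, MOLM-14 and U937. The comparison used the 3 HL-60 arrays and the 9 arrays of the other lines (3 each) that carried a scrambled control hairpin, out of 44 arrays in the series. THP-1 and MOLM-14 are monocytic lines with a rearranged KMT2A gene, and U937 is a monocytic line. The other 32 arrays carried hairpins against GSK3A or GSK3B, 8 in each line, and served only to see the same line differences in other samples. All cells compared, HL-60 and the others alike, had been infected with the scrambled hairpin construct, kept in RPMI medium with serum and put under puromycin at 1 µg/mL starting 48 h after infection, with RNA taken another 48 h on. The comparison therefore describes infected and selected cultures, with 1 cell line behind each label, and not untreated cells. The labels call the replicates biological and say nothing more of separate cultures, so p-values cover the spread among these arrays alone.

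The promyelocyte is the stage of granulocyte development at which primary (azurophil) granules are filled with myeloperoxidase, serine proteases and antimicrobial proteins. Monocytic cells carry pattern recognition and scavenger receptors, and leukaemias with a rearranged KMT2A gene keep a set of developmental transcription factors switched on, among them HOXA cluster genes, MEIS1, PBX3 and MEF2C. Transcription factors of the C/EBP family and PU.1 drive granulocytic and monocytic genes in normal marrow.

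Each array gave a deposited intensity, a linear number in arbitrary units, for 22277 probe sets, of which the brightest was kept for each of 12165 genes. Differences are on the scale of log2(intensity + 16) after quantile normalization, which understates the difference of a dim gene. A difference is HL-60 minus the mean of the other lines, each line with equal weight, and carries the standard error of the fit after ±. Adjusted p-values are those of limma with Benjamini-Hochberg adjustment over all genes, two-sided, with a threshold of 0.05. A gene is called higher or lower "than every line" where the 3 differences of HL-60 against THP-1, MOLM-14 and U937 each passed the threshold in the same direction.

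The lines sat in separate rows of the array plate, so plate row and line cannot be told apart. HL-60 replicates correlated at 0.998 on the log2 scale, and no gene lay more than 1 log2 unit apart between replicate 3 and the mean of the other 2. Replicate 3 sat in a later plate column than replicates 1 and 2, and in that replicate 33 genes of MOLM-14 and 101 genes of U937 lay more than 1 log2 unit from the mean of the others. Where the text describes a gene with such a shift, its difference is also given for replicates 1 and 2 alone (plate columns 1 to 6). Markers of other lineages were dim: 13 of 15 erythroid, 10 of 14 megakaryocyte, 18 of 20 T and NK, 10 of 12 B and 13 of 18 epithelial and stromal markers averaged under 20 in all 4 lines. In the same order, 4, 2, 4, 0 and 0 of the measured markers were higher and 0, 2, 1, 2 and 3 lower in HL-60 than the mean of the other lines. Over all genes 26.9% were higher and 21.0% lower. A mean under 20 in every line was shared by 4407 of all 12165 genes, of which 161 were higher and 9 lower in HL-60 than in every line.

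HL-60 was higher than every line for 1078 genes (8.86% of those tested) and lower than every line for 649 genes (5.33%). Against the mean of the other lines 3269 genes were higher (26.9%) and 2556 lower (21%), so that 56.1% of the genes past the threshold were higher. These shares of all genes are the background for the counts by list and by chromosome below. That split depends on scaling: it was 74.9% under median scaling, 55.0% without further normalization and 47.2% under cyclic loess. The median difference of all genes was 0.02 here and 0.11 under median scaling. Differences of at least 2-fold (1 log2 unit) against each of the 3 lines were fewer, with 81 genes higher (0.666%) and 128 lower (1.05%). On the same 2-fold rule U937 stood apart from its 3 counterparts by 162 higher and 121 lower genes, THP-1 by 250 and 160, and MOLM-14 by 109 and 44. HL-60 had fewer such genes above the others than below them, while each of the other lines had more above than below. Of the genes past the threshold against every line, 1001 of the 1078 higher and 631 of the 649 lower also had all 3 HL-60 arrays outside the range of the 9 others. Over all 12165 genes, 1392 had all 3 HL-60 arrays above the 9 others and 891 had them below. The calls and these ranges come from the same arrays, so the ranges are not separate support.

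Myeloperoxidase had the largest difference of all. MPO, on chromosome 17, makes hypochlorous acid in azurophil granules. It read 5827, 5542 and 5357 in the HL-60 arrays, against 118, 123 and 77.8 in MOLM-14, 16.7, 16.3 and 20.1 in THP-1 and 11.4, 12.3 and 10.6 in U937. All HL-60 arrays were far above the rest, and MOLM-14 was the highest of the rest. The difference was 6.84 ± 0.09 on the log2 scale (adjusted p = 4.11e-28). PRG2, the gene of eosinophil major basic protein, read 1574, 1443 and 1483 in HL-60 and 10.1 to 16.6 in the 9 other arrays, a difference of 5.66 ± 0.05 (adjusted p = 7.13e-32). For PRG2 the other lines lay together near the bottom of the scale. In bulk RNA such as this, fewer cells with a transcript and less of it per cell cannot be told apart.

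**Figure D1:**
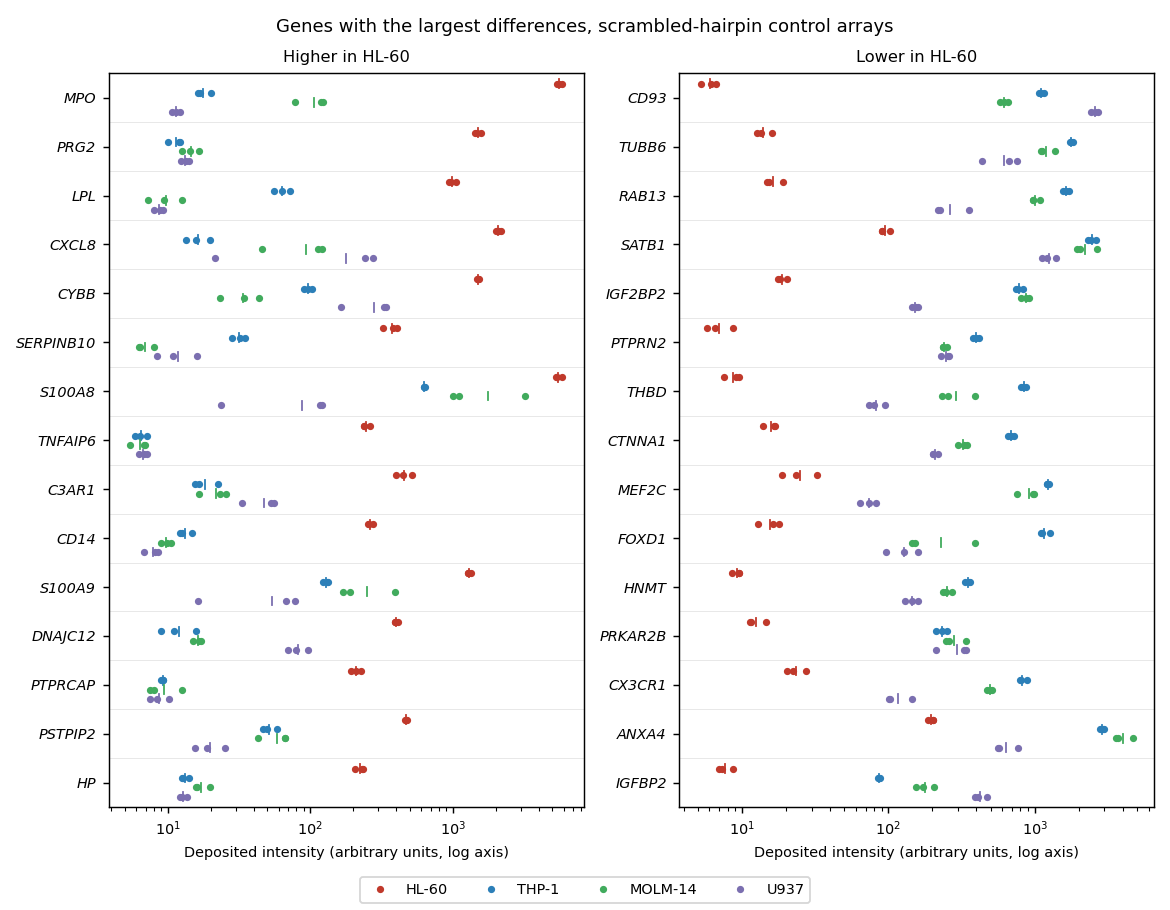
Deposited intensity (arbitrary units, log axis) of the 15 genes with the largest positive difference (left) and the 15 with the largest negative difference (right) among genes past the threshold against every line whose HL-60 arrays lay outside the range of the others, 1 point per scrambled-hairpin control array and a tick at the mean of each line's 3 arrays. The separation of HL-60 in each row is therefore part of the choice of genes; its size runs up to that of MPO, at 5357 to 5827 in HL-60, and CD93 lies at 5.26 to 6.66.

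Granule genes did not all follow MPO in direction. Of 18 measured genes in the primary granule list, 11 were higher than the mean of the other lines (61.1%, beside 26.9% of all genes). Another 5 were lower (27.8%, beside 21.0%). Against every line 8 were higher and 3 lower, beside 8.86% and 5.33% of all genes. The median difference was 0.35 beside 0.02 over all genes. PRTN3, which encodes proteinase 3, read 1399, 1131 and 1259 in HL-60, against 372, 394 and 709 in MOLM-14, 513, 501 and 515 in THP-1 and 194, 296 and 335 in U937, a difference of 1.58 ± 0.27 (adjusted p = 1.46e-05). MS4A3, a membrane protein of granulocyte progenitors, averaged 2860 ± 109 in HL-60, against 459.9 ± 83.6 in MOLM-14, 1832 ± 104 in THP-1 and 935 ± 195 in U937 (SD, n = 3 each), a difference of 1.59 ± 0.17. BPI, which binds bacterial lipopolysaccharide, read 218 to 232 in HL-60, against 37.1 to 102 in MOLM-14, 5.60 to 6.22 in THP-1 and 6.66 to 7.53 in U937 (2.81 ± 0.25). DEFA4, a defensin, read 38.9 to 53.1 in HL-60 and 8.82 to 11.2 in the other 9 arrays. These 4 genes were higher than every line.

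Other granule proteins were lower or missed the threshold. AZU1, azurocidin, read 112, 112 and 132 in HL-60, against 927, 932 and 1275 in MOLM-14, 1158, 1207 and 1083 in THP-1 and 184, 259 and 618 in U937, a difference of -2.44 ± 0.32 (adjusted p = 3.21e-07). CTSG, cathepsin G, read 1696, 1550 and 1731 in HL-60 and 2877 to 9321 in the others (-1.41 ± 0.28, adjusted p = 0.000132). RNASE2, the eosinophil-derived neurotoxin, read 1016 to 1139 in HL-60 and 2029 to 3814 in the others (-1.43 ± 0.06). In each of these 3 genes the highest HL-60 array lay below the lowest array of the other lines. ELANE, neutrophil elastase, read 3156, 2417 and 2671 in HL-60, overlapping the 2611 to 5421 of the others, and missed the threshold at -0.40 ± 0.25 (adjusted p = 0.204). In U937, replicate 3 was the highest array for AZU1, CTSG and ELANE. With replicates 1 and 2 alone the differences were -2.31 for AZU1, -1.25 for CTSG, 1.74 for PRTN3 and -0.22 for ELANE, which again missed the threshold (adjusted p = 0.0556).

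AZU1, PRTN3, ELANE and CFD follow each other along chromosome 19, and these neighbours differed in direction. CFD, complement factor D, read 439, 403 and 357 in HL-60, against 1446 to 1481 in MOLM-14, 2032 to 2445 in THP-1 and 176 to 673 in U937. CFD was lower than in THP-1 (-2.50) and MOLM-14 (-1.85) and did not pass the threshold against U937 (0.49, adjusted p = 0.395), where replicate 3 read 673 and the other 2 read 181.6 and 176. With replicates 1 and 2 alone CFD was higher than in U937, by 1.18 (adjusted p = 2.34e-06), and the difference from the mean of the other lines was -0.98, against -1.28 with all arrays. The RefSeq promoters of AZU1, PRTN3 and CFD are shown because these neighbouring genes differed in direction, and that of CD14 because it is the monocyte marker for which HL-60 stood apart. Each runs from 250 bases before to 50 after the annotated start in GRCh38.p14, 5′ to 3′ on the strand of the gene. AZU1 lies at chr19:827587-827886, PRTN3 at chr19:840749-841048 and CFD at chr19:859414-859713, all on the plus strand, and CD14 at chr5:140633126-140633425 on the minus strand. Capitals mark matches on either strand to GAGGAA, a core of PU.1 sites, and to TTNNGNAA, a C/EBP pattern.
AZU1: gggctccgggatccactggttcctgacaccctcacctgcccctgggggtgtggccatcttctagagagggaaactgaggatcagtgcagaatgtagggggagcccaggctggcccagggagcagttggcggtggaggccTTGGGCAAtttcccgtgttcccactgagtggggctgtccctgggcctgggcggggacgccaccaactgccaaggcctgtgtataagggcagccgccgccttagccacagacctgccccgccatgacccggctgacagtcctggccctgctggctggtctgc
PRTN3: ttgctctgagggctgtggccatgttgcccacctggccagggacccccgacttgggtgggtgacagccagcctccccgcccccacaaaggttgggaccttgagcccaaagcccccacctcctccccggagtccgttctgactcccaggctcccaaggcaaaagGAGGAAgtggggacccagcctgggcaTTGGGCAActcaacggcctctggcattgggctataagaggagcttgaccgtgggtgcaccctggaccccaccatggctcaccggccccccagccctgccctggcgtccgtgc
CFD: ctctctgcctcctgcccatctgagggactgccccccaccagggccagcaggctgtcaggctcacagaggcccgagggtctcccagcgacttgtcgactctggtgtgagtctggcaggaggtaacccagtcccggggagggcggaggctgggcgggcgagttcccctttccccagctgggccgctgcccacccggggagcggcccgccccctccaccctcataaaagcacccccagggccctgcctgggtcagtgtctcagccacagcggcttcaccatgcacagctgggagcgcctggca
CD14: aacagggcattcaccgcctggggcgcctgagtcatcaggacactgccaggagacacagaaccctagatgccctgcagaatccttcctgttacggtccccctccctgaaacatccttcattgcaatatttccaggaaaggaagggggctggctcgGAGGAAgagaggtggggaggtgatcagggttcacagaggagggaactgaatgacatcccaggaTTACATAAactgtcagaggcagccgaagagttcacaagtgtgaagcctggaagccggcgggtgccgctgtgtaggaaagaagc

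AZU1 and PRTN3 each held 1 match to TTNNGNAA, and PRTN3 also held 1 match to GAGGAA, which AZU1 did not. CFD held neither pattern, and CD14 held 1 match to each, with no overlap between these 2 patterns in any of the windows. Among 34796 RefSeq promoters of this length, GAGGAA was found in 27.9% and TTNNGNAA in 36.9%. AACNG, a pattern of MYB sites that is not capitalised, matched 3 times in AZU1, 2 times in PRTN3, 4 times in CD14 and not in CFD, and was found in 77.1% of all promoters. A match describes these letters only.

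CEBPE and GATA2, transcription factors of granulocyte and eosinophil development, were higher than every line. CEBPE, which drives late granulocyte maturation, read 187, 177 and 190.1 in HL-60, against 9.98 to 11.3 in MOLM-14, 9.95 to 13.5 in THP-1 and 43.6 to 47.2 in U937 (2.51 ± 0.05, adjusted p = 5.77e-24). GATA2, a factor of progenitors, mast cells and eosinophils, read 105 to 113 in HL-60 and 13.5 to 42.5 in the others (1.67 ± 0.07). The groups did not overlap for either gene. SPI1, which encodes PU.1, was higher by a small amount, at 24.9 to 32.7 in HL-60 and 15.6 to 23.7 in the others (0.39 ± 0.06). MYB, a factor of immature cells, was bright throughout and lower in HL-60 (1443 to 1619) than in the others (1956 to 2411), by -0.51 ± 0.09. FLI1 and ID2, which act in megakaryocyte and dendritic cell development among others, were lower than every line as well, by -0.82 and -0.74. Of 39 measured transcription factors, 12 were higher and 12 lower than the mean (30.8% each, beside 26.9% and 21.0% of all genes). Against every line 5 were higher and 3 lower, and the median was -0.05 (0.02 under median scaling).

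Other factors of the granulocyte and monocyte branches gave a different order of the lines for each. CEBPA, needed for the first granulocytic step, read 2014 to 2188 in HL-60, against means of 2005 in MOLM-14, 2326 in THP-1 and 1249 in U937, and passed the threshold against U937 alone (0.76). With replicates 1 and 2 alone CEBPA was also lower than in THP-1 (-0.24, adjusted p = 0.0126). CEBPD, a factor of maturing myeloid cells, read 451 to 526 in HL-60, above MOLM-14 (336 to 389) and below THP-1 (638 to 702), while U937 was near the bottom of the scale (5.76 to 6.32). GFI1, a repressor needed for neutrophils, read 592 to 608 in HL-60, above MOLM-14 (371 to 418) and below U937 (664 to 755) and THP-1 (795 to 883). IRF8, which directs cells to the monocyte branch, read 359, 383 and 427 in HL-60, against 1748 to 2165 in MOLM-14, 2095 to 2205 in THP-1 and 382 to 588 in U937. The IRF8 difference was -1.63 ± 0.12 against the mean, and HL-60 did not pass the threshold against U937 (-0.23, adjusted p = 0.219).

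**Figure D2:**
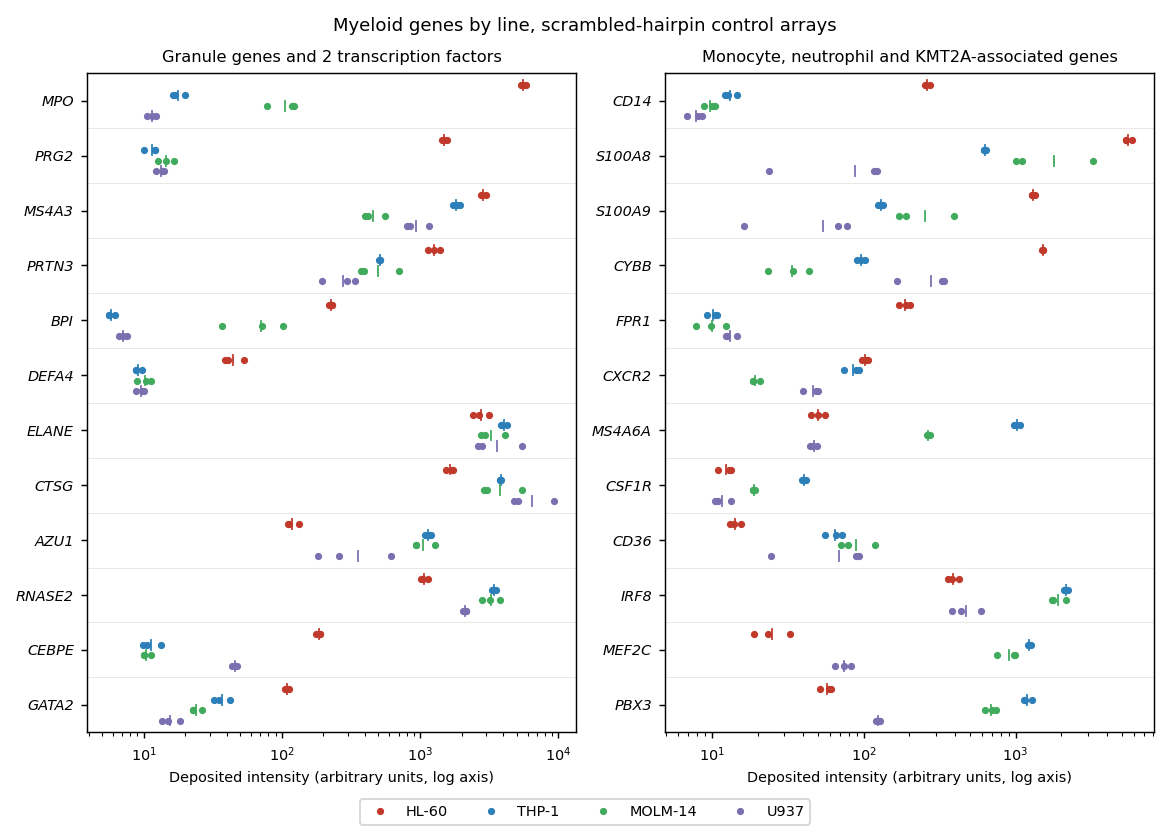
Deposited intensity (arbitrary units, log axis) of granule genes and transcription factors (left) and of monocyte, neutrophil and KMT2A-associated genes (right), 1 point per scrambled-hairpin control array and a tick at the mean of each line. HL-60 lies alone at the top for MPO (5357 to 5827) and CD14 (255 to 274), below all others for AZU1 (112 to 132) and among the others for ELANE.

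Genes of maturing and mature neutrophils that passed the threshold against the mean of the other lines were higher, but the direction was not shared by every line. Of 28 measured, 14 were higher than the mean, 0 lower, and 9 were higher than every line, with a median of 0.17; 14 averaged under 20 in all lines. Against single lines, 15 members were higher and 3 lower than in THP-1, 14 and 0 than in MOLM-14, and 14 and 2 than in U937. The summed intensity of the list was highest in THP-1, at 3223 to 3413 in HL-60, against 2468 to 2799 in MOLM-14, 5691 to 5920 in THP-1 and 1278 to 1617 in U937. HP, haptoglobin, read 206 to 233 in HL-60 and 12.2 to 19.7 in the others (2.99 ± 0.12). FPR1, the formyl peptide receptor that guides neutrophils to bacteria, read 170.3 to 203 in HL-60 and 7.90 to 14.5 in the others (2.91 ± 0.09). ARG1, arginase, read 94.7 to 125 in HL-60 and 6.07 to 7.62 in the others (2.45 ± 0.08). These 3 genes read under 20 in all 9 other arrays, whereas ANXA1, which restrains neutrophil recruitment, was graded: it read 859 to 987 in HL-60, against 158 to 213 in MOLM-14, 335 to 364 in THP-1 and 149.6 to 235 in U937. Markers that define a mature neutrophil were mostly dim. Of LTF, CAMP, LCN2, MMP8, CEACAM8, FCGR3B and CXCR2, 5 averaged under 20 in every line. Of these 7, 5 were higher and 0 lower than the mean, and CEACAM8, FCGR3B and CXCR2 were higher than every line. CXCR2 was the brightest in HL-60, with a mean of 102, against 19.3 in MOLM-14, 85.4 in THP-1 and 46.1 in U937 (1.02 ± 0.09). The summed intensity of the 7 was 168 to 174 in HL-60, against 67.5 to 71.5 in MOLM-14, 123 to 145 in THP-1 and 106 to 121 in U937.

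The promyelocyte label was checked against MPO, ELANE, PRTN3, AZU1, CTSG and MS4A3, and in HL-60 each of the 6 read over 100. This did not set HL-60 apart. In MOLM-14 the means of all 6 were over 100 too, and in THP-1 and U937 all but that of MPO were. The summed intensity of the 6 was 13570 to 15170 in HL-60, against 7455 to 12160 in MOLM-14, 11050 to 11720 in THP-1 and 8904 to 16860 in U937. The overlap with U937 rested on its replicate 3: the U937 arrays summed to 8966, 8904 and 16860, against 15170, 13570 and 13920 in HL-60, so that replicates 1 and 2 of U937 lay below every HL-60 array. In MOLM-14 replicate 3 was the highest as well, and below HL-60. Of these markers 3 were higher and 2 lower than every line. Much of the HL-60 sum came from MPO, with a mean of 5575, against 106 in MOLM-14, 17.7 in THP-1 and 11.4 in U937. The means of ELANE, AZU1 and CTSG were lower in HL-60 than in each other line, and those of PRTN3 and MS4A3 were higher. The place of HL-60 in the sums therefore rests on MPO.

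Monocyte genes were mixed. CD14, the co-receptor for lipopolysaccharide, read 274, 258 and 255 in HL-60, against 8.89 to 10.5 in MOLM-14, 12.2 to 14.7 in THP-1 and 6.83 to 8.54 in U937 (3.42 ± 0.06, adjusted p = 1.36e-26). HL-60 was the single line of the 4 with a CD14 reading over 20, although the other 3 are the monocytic ones. Of 42 measured monocyte and macrophage genes, 16 were higher (38.1%) and 12 lower (28.6%) than the mean, beside 26.9% and 21.0% of all genes. Against every line 10 were higher and 3 lower, beside 8.86% and 5.33% of all genes, and the median was 0.03. Of the 6 measured monocyte markers CD14, FCN1, CSF1R, VCAN, MS4A6A and CD163, CD14 was the 1 that was higher, and CSF1R and MS4A6A were lower than the mean. MS4A6A, a monocyte membrane protein, read 44.8 to 55.8 in HL-60, against 261 to 274 in MOLM-14, 971 to 1074 in THP-1 and 44.4 to 49.4 in U937, so that HL-60 and U937 lay together. CSF1R, the receptor of macrophage colony-stimulating factor, was dim, at 10.9 to 13.4 in HL-60, against 18.7 to 19.3 in MOLM-14, 39.5 to 41.4 in THP-1 and 10.4 to 13.4 in U937. The summed intensity of the 6 markers was 367 to 373 in HL-60, against 319 to 333 in MOLM-14, 1071 to 1178 in THP-1 and 125 to 162 in U937. Most of the HL-60 sum came from CD14, with a mean of 262, against 9.77 in MOLM-14, 13.2 in THP-1 and 7.82 in U937. The place of HL-60 above MOLM-14 and U937 therefore rests on that gene.

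The calprotectin genes S100A8 and S100A9, abundant in neutrophils and monocytes, were higher in HL-60 but not silent elsewhere. S100A8 read 5864, 5366 and 5317 in HL-60, against 1006, 1103 and 3228 in MOLM-14, 635, 624 and 624 in THP-1 and 122, 117 and 23.7 in U937, a difference of 3.61 ± 0.53 (adjusted p = 1.81e-06). S100A9 read 1282 to 1352 in HL-60, against 171 to 394 in MOLM-14, 124 to 133 in THP-1 and 16.3 to 77.8 in U937 (3.29 ± 0.37). For both genes replicate 3 was the highest array of MOLM-14 and the lowest of U937, and with replicates 1 and 2 alone the differences were 3.62 and 3.25. S100A12, another calgranulin, read 147 to 188 in HL-60 and 12.05 to 24.8 in the others (2.54 ± 0.09).

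The subunits of the phagocyte NADPH oxidase did not move together. CYBB, the catalytic subunit, read 1523, 1516 and 1491 in HL-60, against 23.3 to 43.5 in MOLM-14, 90.8 to 103 in THP-1 and 165 to 340.0 in U937 (3.71 ± 0.21, and 3.56 with replicates 1 and 2 alone). CYBA, its partner in the membrane, was lower than every line at 857 to 933 in HL-60, against 1826 to 2016 in MOLM-14, 2455 to 3005 in THP-1 and 1004 to 1230 in U937 (-0.96 ± 0.07). With replicates 1 and 2 alone CYBA missed the threshold against U937 (-0.14, adjusted p = 0.0833). NCF4, a cytosolic subunit, was higher than every line by 0.67 ± 0.07. PRDX2, a peroxiredoxin that removes hydrogen peroxide, read 118 to 135 in HL-60 and 507 to 1038 in the others (-2.39 ± 0.07). Of 23 measured oxidase and oxidant defence genes, 9 were higher (39.1%) and 5 lower (21.7%) than the mean, beside 26.9% and 21.0% of all genes. Against every line 2 were higher and 3 lower, and the median was 0.09.

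Secreted and surface proteins of myeloid cells were among the largest differences on the higher side. CXCL8, interleukin 8, read 2099, 2168 and 2003 in HL-60, against 121, 114 and 45.6 in MOLM-14, 15.7, 13.4 and 19.7 in THP-1 and 240.3, 275 and 21.3 in U937 (4.75 ± 0.47, adjusted p = 2.06e-09). In U937 replicate 3 was the lowest array, and with replicates 1 and 2 alone the difference was 4.36. LPL, lipoprotein lipase, read 943 to 1049 in HL-60, against 7.25 to 12.6 in MOLM-14, 55.6 to 71.6 in THP-1 and 8.01 to 9.26 in U937 (4.76 ± 0.06). TNFAIP6, a hyaluronan-binding protein induced by inflammation, read 238 to 263 in HL-60 and 5.47 to 7.20 in the others (3.54 ± 0.05). C3AR1, the receptor of complement C3a, read 399 to 514 in HL-60 and 15.5 to 55.9 in the others (3.44 ± 0.13). HGF, hepatocyte growth factor, was another secreted protein that was dim in all 9 other arrays, at 89.1 to 114 in HL-60 and 6.15 to 7.97 in the others (2.38 ± 0.05). SERPINB10 (3.64), DNAJC12 (3.22), PTPRCAP (3.18) and PSTPIP2 (3.11) complete the 15 largest. CXCL8 has 9 probe sets and HP has 3, and their other probe sets gave differences from 0.0016 to 3.35 and from 0.23 to 0.47, so the size rests on the brightest probe set.

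Receptors of cytokines and growth factors were split. Of 37 measured, 18 were higher (48.6%) and 14 lower (37.8%) than the mean, beside 26.9% and 21.0% of all genes. Against every line 9 were higher and 3 lower, beside 8.86% and 5.33% of all genes, and the median was 0.16. TNFRSF1B, a receptor of tumour necrosis factor, read 468 to 542 in HL-60, against 132 to 145 in MOLM-14, 104 to 116 in THP-1 and 182 to 224 in U937 (1.66 ± 0.11). TFRC, the transferrin receptor that brings iron into dividing cells, read 4197 to 4494 in HL-60 and 1603 to 2845 in the others (1.02 ± 0.12). CX3CR1, the fractalkine receptor of monocytes, was on the lower side, at 20.3 to 27.5 in HL-60, against 470.4 to 514 in MOLM-14, 792 to 881 in THP-1 and 100.4 to 146 in U937 (-3.20 ± 0.09). FLT3, a receptor kinase of progenitors, read 115 to 129 in HL-60, against 672 to 1175 in MOLM-14, 91.1 to 107 in THP-1 and 16.7 to 35.6 in U937. HL-60 lay between the lines for FLT3, and its difference from the mean missed the threshold (-0.21, adjusted p = 0.324). With replicates 1 and 2 alone that difference passed it (-0.27, adjusted p = 0.0118). CSF3R, the receptor of granulocyte colony-stimulating factor, read 54.6 to 57.5 in HL-60 and 36.4 to 63.7 in the others, and passed the threshold against THP-1 alone. With replicates 1 and 2 alone CSF3R was higher than every line, by 0.48 against THP-1, 0.42 against MOLM-14 and 0.53 against U937.

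Several genes on the lower side were bright in all 3 other lines and near the bottom of the scale in HL-60. CD93, a receptor of monocytes and progenitors, read 5.26, 6.10 and 6.66 in HL-60, against 577 to 658 in MOLM-14, 1065 to 1155 in THP-1 and 2424 to 2702 in U937 (-5.81 ± 0.05, adjusted p = 5.33e-32). TUBB6, a beta-tubulin, read 12.7 to 15.97 in HL-60 and 436 to 1839 in the others (-5.19 ± 0.18). RAB13, a small GTPase of membrane traffic, read 14.9 to 18.96 in HL-60 and 217 to 1712 in the others (-4.56 ± 0.11). These 3 genes, like THBD, thrombomodulin (7.54 to 9.48 in HL-60 and 73.4 to 879 in the others, -3.60 ± 0.11), left no HL-60 array over 20. SATB1, a chromatin organiser, was measurable but far lower, at 90.3 to 103 in HL-60 and 1128 to 2657 in the others (-4.06 ± 0.15). BMI1, a Polycomb subunit needed for self-renewal, read 196 to 210.0 in HL-60, against 1789 to 2035 in MOLM-14, 1222 to 1270 in THP-1 and 2426 to 2704 in U937 (-3.06 ± 0.05). CTNNA1, alpha-catenin, which links cadherins to actin, read 14.0 to 16.9 in HL-60 and 202 to 718 in the others (-3.53 ± 0.07). CTNNA1 has 5 probe sets, and PTPRN2, a phosphatase-like membrane protein among the 15 lowest (-3.74), has 4. The highest of them gave 0.01 and 0.07, but these were near the bottom of the scale in every line. Their means were 8.36 to 9.82 for CTNNA1 and 7.25 to 8.62 for PTPRN2.

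Genes tied to KMT2A fusions and to the HOX and TALE homeobox families were lower where they passed the threshold against the mean, with 1 exception, but this depended on scaling and on the line. Of 24 measured, 1 was higher (4.17%) and 11 were lower (45.8%) than the mean, beside 26.9% and 21.0% of all genes. Against every line 0 were higher and 3 lower, and the median was -0.16. Under median scaling 8 were higher and 10 lower. Against U937 alone 4 were higher and 6 lower, against 1 and 11 for THP-1 and 1 and 12 for MOLM-14. MEF2C, a factor kept on in KMT2A-rearranged leukaemia, read 18.9, 32.6 and 23.5 in HL-60, against 755 to 990.1 in MOLM-14, 1217 to 1255 in THP-1 and 64.6 to 82.9 in U937 (-3.47 ± 0.09). PBX3, a HOX cofactor, read 51.8 to 60.9 in HL-60, against 629 to 744 in MOLM-14, 1135 to 1285 in THP-1 and 119.5 to 129 in U937 (-2.68 ± 0.06). For both genes the gap to U937 was the smallest, at -1.06 and -0.86. MEIS1, another HOX cofactor, did not divide the lines by KMT2A: it read 6.54 to 7.07 in HL-60, against 221 to 258 in MOLM-14, 5.92 to 6.396 in THP-1 and 504 to 569.8 in U937. HOXA5, HOXA7, HOXA9 and HOXA10 were not analysed here, since no probe set named one of them alone.

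Interferon response genes were lower against the mean, with most of the size from 1 line. Of 39 measured, 2 were higher (5.13%) and 33 lower (84.6%) than the mean, beside 26.9% and 21.0% of all genes. Against every line 0 were higher and 8 lower, and the median was -0.71 beside 0.02 over all genes. The median was -1.64 against THP-1, -0.33 against MOLM-14 and -0.15 against U937, and without THP-1 the counts were 4 higher and 18 lower. MX1, an antiviral GTPase, read 12.5 to 13.1 in HL-60, against 9.31 to 9.72 in MOLM-14, 287 to 383 in THP-1 and 11.4 to 14.3 in U937. The membrane proteins IFITM1, IFITM2 and IFITM3, which block virus entry, were lower than every line. IFITM2 read 133 to 143 in HL-60, against 663 to 811 in MOLM-14, 1518 to 1741 in THP-1 and 1708 to 2411 in U937 (-3.12 ± 0.12). IFITM3 read 51.4 to 55.6 in HL-60 and 202 to 2480 in the others (-3.10 ± 0.07), and IFITM1 read 8.54 to 10.8 in HL-60 and 18.9 to 441 in the others (-2.53 ± 0.20). These genes share sequence, so their probe sets may read one another's transcripts. TRIM22, an antiviral ubiquitin ligase, was lower as well (-2.06 ± 0.10), with MOLM-14 as the highest line (921 to 1193).

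Antigen presentation showed no single direction. Of 13 measured MHC class II genes, 2 were higher (15.4%) and 4 lower (30.8%) than the mean, and none passed the threshold against every line. Their median was -0.39, with -0.94 against MOLM-14 but -0.05 and -0.06 against THP-1 and U937. HLA-DRA read 9.76 to 12.1 in HL-60, against 47.1 to 155 in MOLM-14, 9.70 to 15.7 in THP-1 and 8.72 to 22.5 in U937. Its difference from the mean missed the threshold with all arrays (-0.81, adjusted p = 0.142) and passed it with replicates 1 and 2 alone (-0.92, adjusted p = 1.01e-05). Replicate 3 was the lowest array of MOLM-14 and the highest of U937. Among 15 class I and immunoproteasome genes, 7 were higher and 7 lower than the mean (46.7% each, beside 26.9% and 21.0% of all genes). The class I heavy chains HLA-B and HLA-C were higher than every line (0.78 and 0.64), while ERAP1, which trims peptides, and PSMB9 and PSMB8, subunits of the immunoproteasome, were lower (-2.50, -1.15 and -1.03). HLA-B and HLA-C are close copies, and their probe sets may read related transcripts.

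MYC was higher than every line. It read 8043, 7444 and 7514 in HL-60, against 4402, 4972 and 3349 in MOLM-14, 1466, 1472 and 1419 in THP-1 and 3764, 3968 and 5625 in U937, a difference of 1.39 ± 0.18 (adjusted p = 2.88e-07). The gap to THP-1 was 2.39 and those to MOLM-14 and U937 were 0.92 and 0.85. Of 14 genes of the MYC and MAX network, 5 were higher (35.7%) and 1 lower (7.14%) than the mean. Genes next to MYC on its chromosome arm gave shares near those of all genes. Of 25 measured, 5 were higher (20%, beside 26.9% of all genes) and 5 lower (20%, beside 21.0%) than the mean. Their median was 0.02, and 9 averaged under 20 in all lines. Against every line 2 were higher and 2 lower. TRIB1, a pseudokinase that destabilises C/EBP alpha, had the largest difference of the 2 higher ones, at 464 to 527 in HL-60, against 110.3 to 180.4 in MOLM-14, 60.6 to 67.0 in THP-1 and 7.43 to 12.1 in U937 (2.84 ± 0.12).

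Genes known as MYC targets or for ribosome biogenesis were mostly higher. Of 34 measured, 25 were higher (73.5%) and 2 lower (5.88%) than the mean, beside 26.9% and 21.0% of all genes. Against every line 10 were higher and 0 lower, and the median was 0.40. The median was 1.03 against THP-1, the line with the lowest MYC, and 0.15 and 0.16 against MOLM-14 and U937, and without THP-1 the counts were 14 higher and 3 lower. PPAT, which opens purine synthesis, read 507 to 545 in HL-60, against 296 to 319 in MOLM-14, 138 to 141 in THP-1 and 313 to 366 in U937 (1.04 ± 0.06). ODC1, which opens polyamine synthesis, read 1992 to 2048 in HL-60, against 899.9 to 925 in MOLM-14, 976 to 1008 in THP-1 and 1570 to 1770 in U937 (0.77 ± 0.04). NOP16, a nucleolar protein, and PAICS, a purine synthesis enzyme, followed at 0.79 and 0.75. Of 48 cell cycle genes, 20 were higher (41.7%) and 5 lower (10.4%) than the mean, beside 26.9% and 21.0% of all genes. This lean was not seen against U937, with 12 higher and 11 lower, against 21 and 7 for THP-1 and 19 and 5 for MOLM-14. Against every line 4 were higher and 1 lower, beside 8.86% and 5.33% of all genes. CDC45, a subunit of the replication helicase, was higher by 1.26 ± 0.14 and RB1, the retinoblastoma protein, was lower (-0.64 ± 0.06).

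Inhibitors of the cell cycle and regulators of cell death differed gene by gene. CDKN1A, which encodes the kinase inhibitor p21, read 15.1 to 21.9 in HL-60, against 661 to 883 in MOLM-14, 91.2 to 116 in THP-1 and 26.3 to 29.3 in U937, and did not pass the threshold against U937 (adjusted p = 0.0825). With replicates 1 and 2 alone CDKN1A passed it against U937 (-0.42, adjusted p = 0.000471). CDKN2A, which encodes p16 and p14ARF, read 61.2 to 68.5 in HL-60, against 8.37 to 9.92 in MOLM-14 and 7.996 to 10.4 in THP-1 but 450.4 to 483 in U937. HL-60 was therefore an intermediate line for CDKN2A and at the low end for CDKN1A. CFLAR, an inhibitor of caspase 8, read 356 to 462 in HL-60 and 54.4 to 156 in the others (1.73 ± 0.09). Its 11 probe sets ranged down to -0.06, in a probe set with means of only 5.60 to 7.26 in the lines. BIK, a BH3-only killer, read 125 to 135 in HL-60, against 952 to 1061 in MOLM-14, 673 to 731 in THP-1 and 211 to 279 in U937 (-1.94 ± 0.10). Of 28 apoptosis genes 6 were higher (21.4%) and 4 lower (14.3%) than the mean, beside 26.9% and 21.0% of all genes. BCL2 itself read 376 to 415 in HL-60 and did not pass the threshold (0.11, adjusted p = 0.652).

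Isoforms of phosphofructokinase differed in direction, and enzymes of serine synthesis were lower. The muscle form of phosphofructokinase, PFKM, read 130.4 to 160.1 in HL-60 and 8.19 to 13.5 in the others (2.60 ± 0.07), and the platelet form, PFKP, read 329.9 to 381 in HL-60 and 649 to 885 in the others (-1.12 ± 0.06). Both catalyse the committed step of glycolysis, and HL-60 was higher for PFKM and lower for PFKP than every line. Of 26 glycolysis and hypoxia genes 11 were higher (42.3%) and 7 lower (26.9%) than the mean, beside 26.9% and 21.0% of all genes. PHGDH, the first enzyme of serine synthesis, read 111 to 119 in HL-60 and 235 to 661 in the others (-1.58 ± 0.20), and PSPH, the last, read 25.4 to 36.8 in HL-60 and 199.5 to 396 in the others (-2.55 ± 0.17). Of 28 serine, one-carbon and amino acid genes, 3 were higher (10.7%) and 10 lower (35.7%) than the mean. Against every line 0 were higher and 3 lower, and the median was -0.30. Of 24 cholesterol and fatty acid genes 9 were higher (37.5%) and 5 lower (20.8%) than the mean, beside 26.9% and 21.0% of all genes. ELOVL6, which lengthens fatty acids, was higher than every line by 2.15, whereas SREBF1, a lipogenic transcription factor, and the desaturases SCD and FADS2 were lower (-1.06, -0.93 and -0.94). Of 31 oxidative phosphorylation genes 15 were higher (48.4%) and 6 lower (19.4%) than the mean.

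Adhesion, lysosome and Wnt genes had more members on the lower side against the mean, which for lysosome genes did not hold against MOLM-14. Of 27 integrin and adhesion genes, 8 were higher (29.6%) and 13 lower (48.1%) than the mean, beside 26.9% and 21.0% of all genes. Against every line 0 were higher and 5 lower, with the hyaluronan receptor CD44 at -1.49 and PECAM1, which mediates passage through vessel walls, at -1.42. Of 30 lysosome genes 7 were higher and 15 lower than the mean. Against MOLM-14 11 lysosome genes were higher and 5 lower (median 0.09), against 6 and 15 for THP-1 (median -0.51) and 7 and 17 for U937 (median -0.52). Of 26 Wnt and GSK3 genes 5 were higher (19.2%) and 11 lower (42.3%) than the mean. Both targets of the study's other hairpins were expressed: GSK3A read 51.7 to 57.8 in HL-60 and 32.3 to 47.5 in the others, a little higher than every line (0.37 ± 0.05), and GSK3B did not pass the threshold (0.14, adjusted p = 0.164). Of 28 epigenetic regulators mutated in AML, 9 were higher and 7 lower than the mean. The de novo DNA methyltransferases DNMT3A and DNMT3B were lower than every line (-0.69 and -1.22), and so was IDH2, a mitochondrial isocitrate dehydrogenase (-1.16), while MEN1, which encodes the KMT2A partner menin, was higher (0.77). Of 29 NF-kB and inflammation genes 13 were higher and 2 lower, and of 24 RAS and MAPK feedback genes 6 and 7. Of 19 stem and progenitor genes 0 were higher and 5 lower (26.3%) than the mean (12 and 4 under median scaling), and 15 averaged under 20 in all lines.

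**Figure D3:**
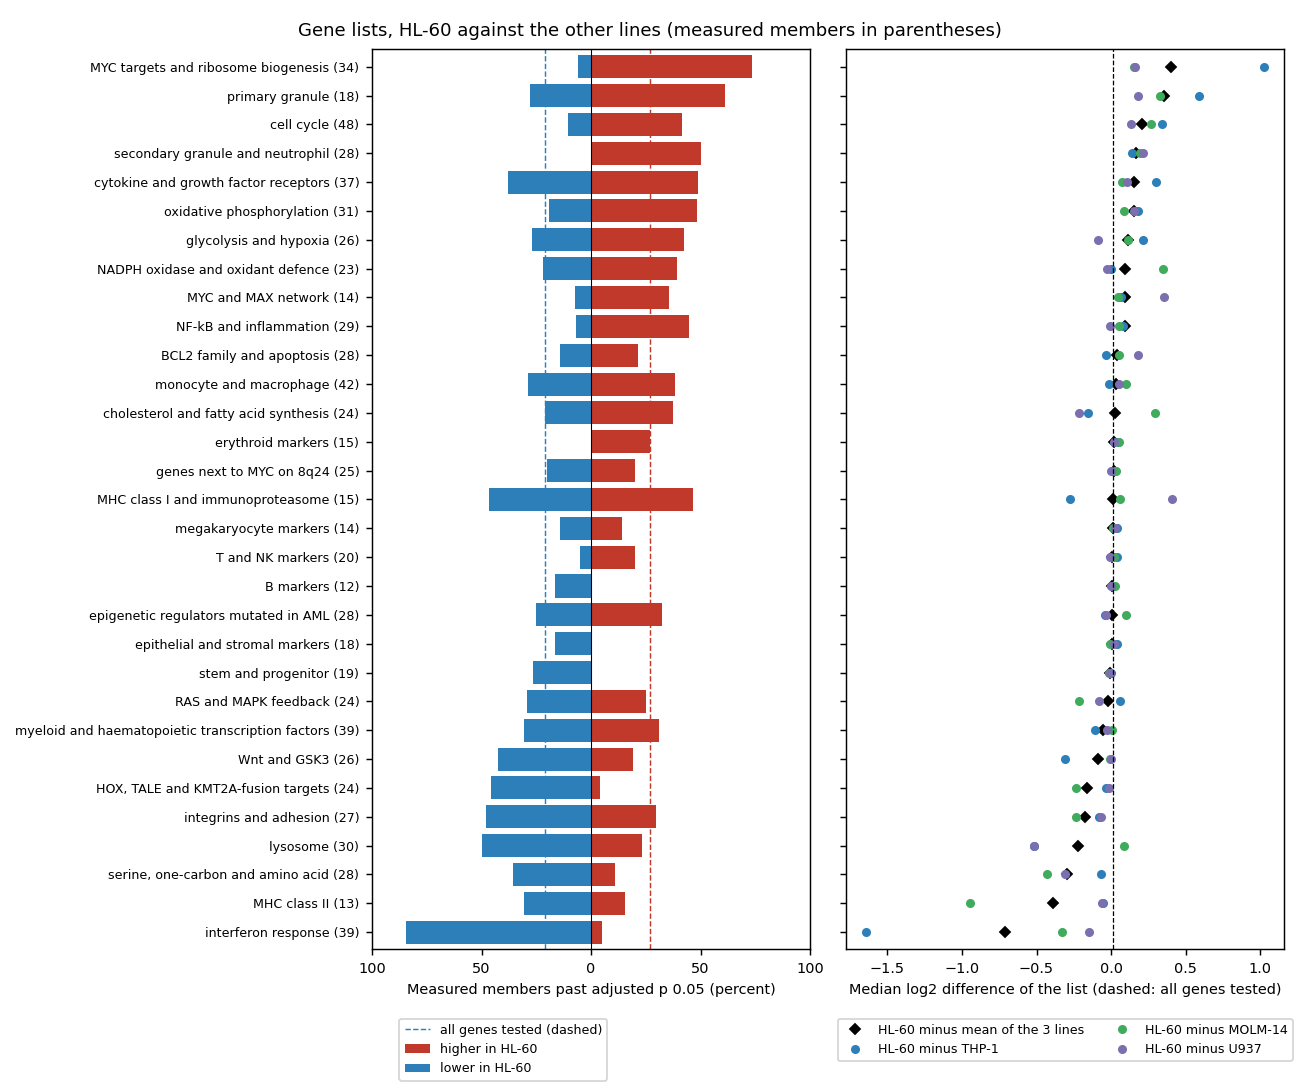
Share of the measured members of each list shown past adjusted p 0.05 against the mean of the other lines (left, percent, with dashed lines at the shares over all genes) and the median log2 difference of each list against the mean and against each line (right). MYC targets head the order with a median of 0.40 and interferon response genes close it at -0.71, with the THP-1 point at -1.64.

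The genes that differed from every line were not spread evenly over the chromosomes. On chromosome 18, 53 of 170 measured genes (31.2%) were higher than every line and 2 lower. On chromosome 22, 72 of 318 (22.6%) were higher. On chromosome 15 more genes were lower, with 73 of 374 (19.5%) lower and 7 higher. Among genes that averaged at least 50 in every line, 69 of 71 on chromosome 18 had a positive difference, with a median of 0.62 (0.64, 0.66 and 0.65 against THP-1, MOLM-14 and U937), beside 0.08 over all 4853 such genes. On chromosome 15, 137 of 157 such genes had a negative difference and the median was -0.35. Under median scaling these medians were 0.73 for chromosome 18, -0.29 for chromosome 15 and 0.15 over all.

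Examples from these chromosomes were chosen after their values were seen. SMCHD1, which helps silence the inactive X chromosome, and CTDP1, a phosphatase of RNA polymerase II, lie on chromosome 18. SMCHD1 read 459.9 to 509 in HL-60 and 145 to 235 in the others (1.32 ± 0.07), and CTDP1 read 191 to 211 in HL-60 and 52.0 to 75.5 in the others (1.45 ± 0.09). TUBB6, with its difference of -5.19, lies on chromosome 18 too and was one of the 2 genes there that were lower than every line. On chromosome 15, CYFIP1, an actin regulator, read 211 to 285 in HL-60 and 728 to 1049 in the others (-1.67 ± 0.08), and ANXA2, a membrane-binding protein, read 206 to 256 in HL-60 and 735 to 2271 in the others (-2.21 ± 0.27, and -2.34 with replicates 1 and 2 alone). On chromosome 22, NUP50, a nuclear pore protein, read 926 to 942 in HL-60 and 259 to 571 in the others (1.14 ± 0.08).

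On other chromosomes the genes lay in stretches, picked after the values were seen. With the measured genes of a chromosome in 10 bins in gene order, bins 3 to 6 of chromosome 5 held 60 genes lower than every line of 205 (29.3%) and 4 higher, whereas bins 7 to 10 held 3 lower and 28 higher of 204. The first 2 bins of chromosome 10 held 34 lower genes of 92 (37.0%), and the other 8 held 12 of 363. On chromosome 1, bins 6 to 10 held 63 lower genes of 609 and bins 1 to 5 held 12 of 610. The first 3 bins of chromosome 12 held 37 higher genes of 204 (18.1%) and the other 7 held 40 of 469 (8.53%), beside 8.86% over all genes. DNA copy number was not measured in these arrays, and its part in these shares was not tested.

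**Figure D4:**
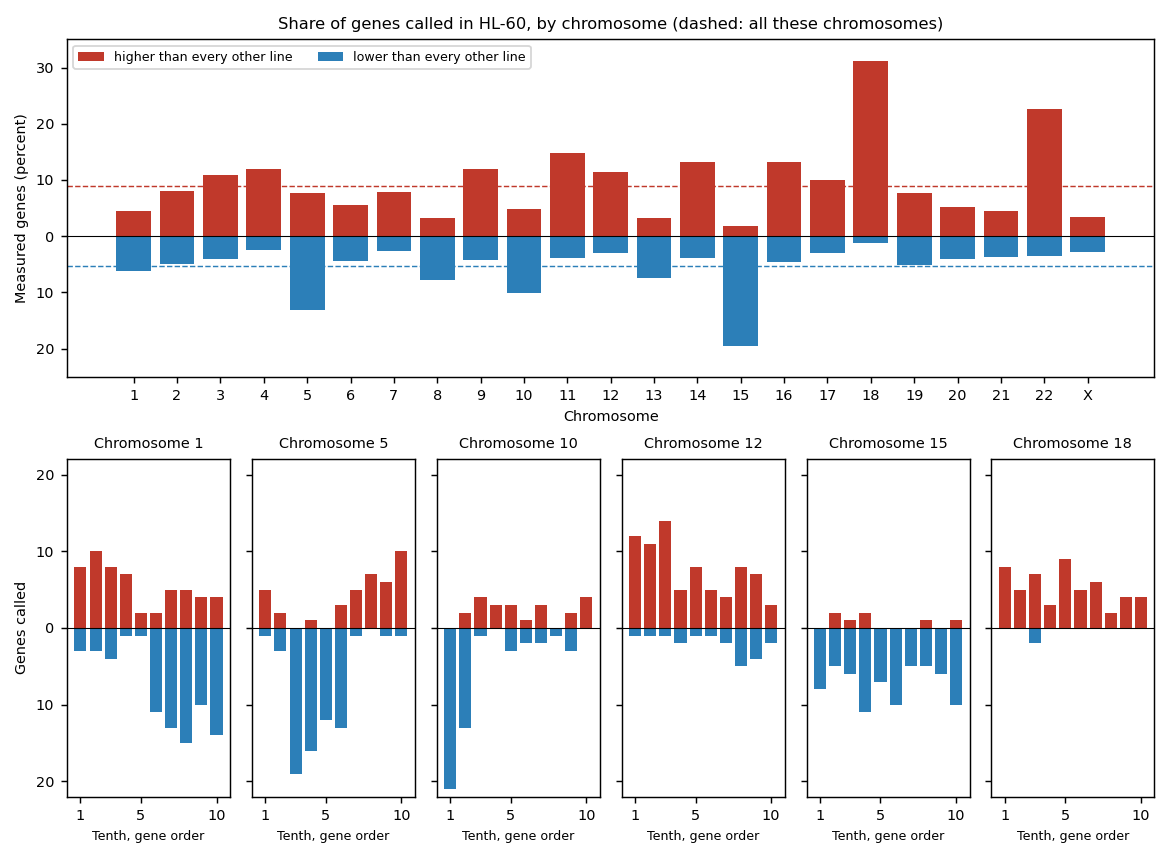
Top, percent of measured genes per chromosome that were higher (up) or lower (down) in HL-60 than in every other line, with dashed lines at the shares over the chromosomes shown; bottom, the number of such genes in each of 10 bins of a chromosome's measured genes in gene order. Chromosome 18 reaches 31.2% higher, chromosome 15 reaches 19.5% lower, and 34 of the lower genes of chromosome 10 lie in its first 2 bins.

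The hairpin arrays gave the line differences again in other samples of these lines. Of the 1078 genes higher than every line in the control arrays, 922 were also higher than every line in the 8 HL-60 hairpin arrays against the 24 of the other lines, and 624 of the 649 lower genes were lower there too. Over all 12165 genes, 1579 were higher and 969 lower than every line in the hairpin arrays. Each line's hairpin arrays sat in the same plate row as its control arrays, so line and row cannot be told apart here either. MPO read 4178 to 5640 in the HL-60 hairpin arrays and 10.3 to 51.8 in those of the other lines (7.10 on the log2 scale). CD93 read 5.77 to 9.01 in the HL-60 hairpin arrays and 482 to 2954 in the others (-5.83). AZU1 read 79.8 to 173 in the HL-60 hairpin arrays and 132 to 1264 in the others (-2.27), so that these groups overlapped, unlike in the control arrays. The difference of HL-60 from the other lines changed past the threshold between hairpin and control arrays for 42 genes (0.345%), of which 28 were genes past the threshold against every line. CD14 was one of them, with a median of 354 and a range of 137 to 1144 in the HL-60 hairpin arrays, against 6.91 to 17.7 in those of the other lines.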

How the data were processed

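RNA levels were read with Affymetrix human genome arrays in 44 samples, of which the 12 control arrays were compared. The authors deposited 1 linear intensity per probe set and array. RMA and MAS5 are named, per the submitters' processing notes, with no role or version. Array medians of 19.0 to 22.9 and upper quartiles of 139 to 151 show that the arrays had been brought to a near common level. Precision is limited by how many arrays there are, since they hold no counts.

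Of 22277 probe sets, 62 were controls, 19724 named 1 gene in the platform annotation, 568 several and 1923 none. The probe set with the highest mean was kept for each of 12165 genes, and 4505 genes had more than 1. Values were quantile-normalized on the log2(intensity + 16) scale and fitted with limma 3.58.1 in R 4.3.3 over 20 groups of line and construct, with 24 residual degrees of freedom, so that all arrays share the estimate of spread. On simulated data with 12165 genes, 91% of changes of 0.5 and 99% of changes of 1 (log2) were recovered against the mean of the other lines, and 74% and 98% against every line, with 9 false calls against the mean. The simulation gave all lines the same baseline, independent normal noise at the fitted spread, and 100 changed genes of each size. It therefore leaves out the many differences between these lines and the shifts of replicate 3.

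The comparison and the 32 gene lists were chosen with earlier results of these data known, and 1 of the lists is not reported here. Named genes were the 15 highest and 15 lowest with non-overlapping arrays, up to 4 members a list and direction past the threshold against every line, and a set of 48, of which 8 had no value. A further 20 genes were named after their values were seen: CFD, S100A12, BMI1, HGF, TPGS2, CTDP1, SMCHD1, ANXA2, CYFIP1, TPM1, RRP7A, NUP50, MS4A6A, FCGR3B, IFI44, MX1, ISG15, CEBPB, CEBPD and MS4A4A. Same-numbered replicates were checked for pairing: 2 of 18 same-number pairs of arrays had deviations correlated above 0.1 (-0.08 to 0.11), so the numbers were not taken to pair the arrays. Alternatives covered the scaling, the pseudocount, a filter on dim genes, the probe set rule, the arrays fitted, replicate and plate column blocks, each control array left out, each other line left out, and the hairpin arrays.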

Additional observations from a re-analysis of the deposited data

Results flagged for a closer look

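For 6 named genes the difference of HL-60 from the other lines was not the same in the hairpin arrays as in the control arrays, by limma's test of that change with Benjamini-Hochberg adjustment over all genes. The change is given as hairpin minus control difference on the log2 scale. CD14, the lipopolysaccharide co-receptor, had a larger difference in the hairpin arrays (3.92, against 3.42 in the control arrays), a change of 0.50 ± 0.06 (adjusted p = 4.74e-05). CEBPE, the granulocyte maturation factor, had 2.88 in the hairpin arrays, against 2.51 in the control arrays, a change of 0.37 ± 0.06 (adjusted p = 0.00226), and HP, haptoglobin, had 3.64 and 2.99, a change of 0.65 ± 0.14 (adjusted p = 0.023). For the other 3 genes the difference was smaller in the hairpin arrays. TNFAIP6 had 2.89 there, against 3.54 in the control arrays, a change of -0.65 ± 0.06 (adjusted p = 3.76e-07). HGF had 1.73, against 2.38, a change of -0.65 ± 0.06 (adjusted p = 2.67e-07). CTSF, a lysosomal cathepsin, had 0.07, against 0.44, a change of -0.37 ± 0.08 (adjusted p = 0.0195). The 6 genes kept a positive difference in both sets of arrays. The reason for the changes was not tested.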

How the results depend on the processing

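The 6 counts of genes stayed within 1.5 times of their values in most alternatives, and the exceptions are these. Median scaling gave 6522 genes higher than the mean of the other lines, against 3269, and 2767 higher than every line, against 1078. Asking for at least 1 log2 unit left 237 higher and 443 lower genes against the mean, and 81 and 128 against every line. With MOLM-14 left out, 1639 genes were higher and 1102 lower than both remaining lines (125 and 226 by at least 2-fold), with U937 left out 1789 and 1240 (164 and 274), and with THP-1 left out 978 were lower. With fewer lines to pass, counts against every line can only rise. A pseudocount of 64 gave 42 higher and 58 lower 2-fold genes, since it shrinks dim genes. Leaving out 1 control array at a time gave 2818 to 3281 higher and 2242 to 2555 lower genes against the mean, 986 to 1071 and 574 to 642 against every line, and 78 to 86 and 120 to 131 by at least 2-fold. The fit with a replicate block on the 12 control arrays gave 3163 and 2549 genes against the mean, 1080 and 677 against every line, and 81 and 128 by at least 2-fold, and 4 of 12 arrays correlated best with their own number. Within plate columns 7 to 11 there is 1 control array per line, so those values carry no test.

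Of 184 named genes, 173 passed the threshold against the mean, and 4815 of their 4823 values under the alternatives kept their direction, 36 of them (15 genes) short of the threshold. Of the 152 named genes past the threshold against every line, 3 lost the call against the mean somewhere: SCD with the mean of all probe sets (-0.49), CTSF in the hairpin arrays (0.07) and EPB42 in plate columns 1 to 6 (0.15). Genes whose direction turned had lines on both sides of HL-60 or little difference: CEBPA (-0.076 with U937 left out, -0.00047 in the hairpin arrays), GFI1 (0.20 with THP-1 left out, 0.18 in the hairpin arrays), FLT3 (1.10 with MOLM-14 left out), CDKN2A (-0.091 with pseudocount 64, -0.37 with THP-1 and -0.38 with MOLM-14 left out), MTAP (-0.16 with THP-1 left out), MX1 (0.074 with THP-1 left out) and CEBPD (-0.034 with U937 left out). Of 76 named genes past the threshold that have more than 1 probe set, 16 had one of the other sign. Signal near the bottom of the scale limits the dim genes, whose differences are understated.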
